A study of Gossypium hirsutum with 4 samples.

Results

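The regions described are 901 sites on the D chromosomes of upland cotton where chromatin was called as enriched in both FLAG immunoprecipitates of the study, the one labelled D53 and the one labelled B. A member is a D53 peak on D01 to D13 that had at least 1 bp in common with a B peak, and whose midpoint lay outside 5 stretches of D05, D06, D08 and D12 that are packed with peaks (dense regions). They were 901 of 18015 D53 peaks in all, and 901 of the 2834 D53 peaks on D chromosomes outside dense regions. The dense regions held a further 118 shared peaks of 121, which are left out and come back only as neighbours.

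Chromatin immunoprecipitation followed by sequencing (ChIP-seq) isolates DNA fixed to a protein and maps where it came from. The material was Gossypium hirsutum leaves in all 4 samples: a FLAG immunoprecipitate (IP) labelled D53 with its input chromatin, and a FLAG IP labelled B with its input chromatin, 1 library each. Chromatin was fixed with formaldehyde and sheared by sonication. The labels give no genotype, age, treatment of the plants, transgene or promoter, leave B unexplained, and list no untagged control IP. There were no replicates, read depth is unknown, and the lists hold nothing by which the tissue could be checked, so every value below describes these lists and no p-value is given.

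Upland cotton is an allotetraploid that joined an A genome, from a relative of Gossypium arboreum, with a smaller D genome, from a relative of Gossypium raimondii, and like-numbered A and D chromosomes are largely counterparts. D53 was first described in rice as a repressor of strigolactone signalling. Strigolactones are hormones that restrain shoot branching, and when they are perceived D53 is marked by an F-box complex and degraded. Without the hormone, D53 and its SMXL relatives in Arabidopsis act with TOPLESS corepressors to hold target genes down, and the series concerns D53 as a transcriptional repressor in cotton.

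The shared sites were spread over all 13 D chromosomes, at 1.17 per Mb of span. Span runs to the last peak of either list on a chromosome, so the true length is at least as great. The number ran from 39 on D03 to 89 on D01, and the density from 0.837 per Mb on D03 to 1.45 per Mb on D01, with a mean of 1.16 ± 0.17 (SD, 13 chromosomes). D10, D04 and D06 followed D01 at 1.32, 1.31 and 1.31 per Mb. D07, D11, D12 and D13 lay between 1.01 and 1.07 per Mb. Each D chromosome had a lower density than its like-numbered A chromosome. On A the shared peaks outside dense regions averaged 2.00 ± 0.24 per Mb (SD, 13 chromosomes), with the lowest value, 1.55 on A13, above the highest value on D. This was not confined to shared peaks: all D53 peaks outside dense regions numbered 3.67 per Mb on D and 5.44 per Mb on A, and those without a partner 2.51 per Mb on D and 3.43 per Mb on A.

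**Figure D1:**
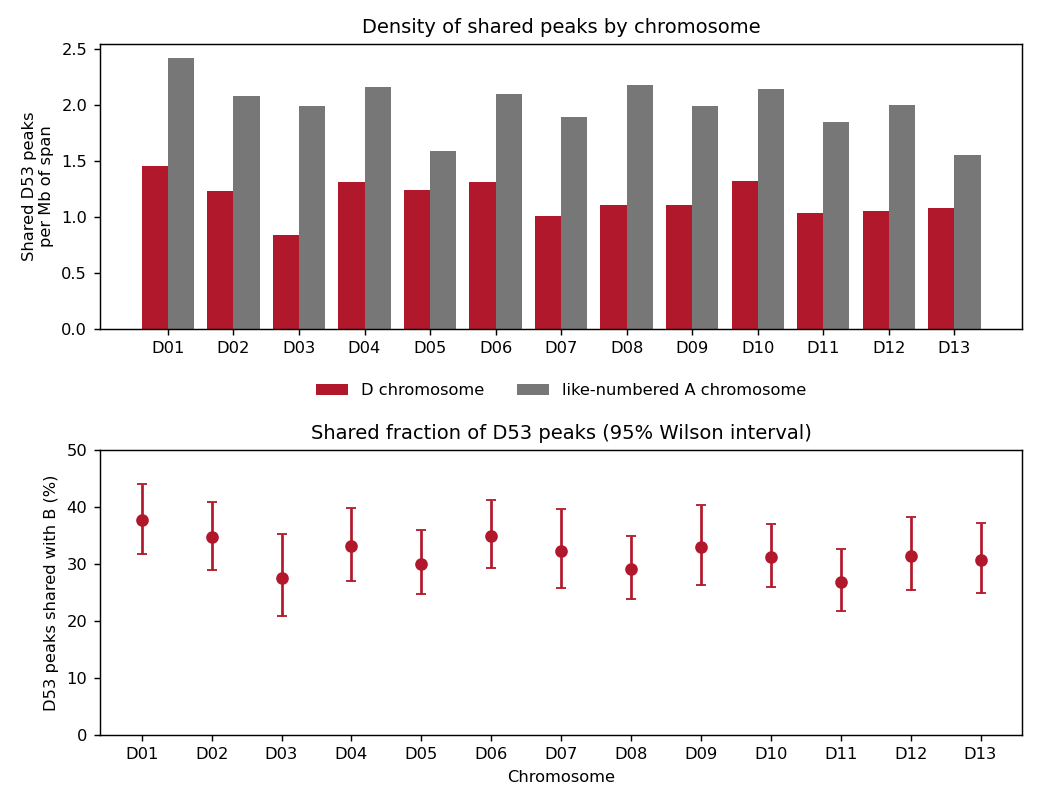
The upper bars give shared D53 peaks per Mb of span on each D chromosome (red) and on the like-numbered A chromosome (grey); the points below give the percentage of D53 peaks on each D chromosome that overlapped a B peak, with 95% Wilson intervals. Density is highest on D01 at 1.45 per Mb and lowest on D03 at 0.837, below the A bar in every pair, and the percentage runs from 26.9 on D11 to 37.7 on D01.

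Of the D53 peaks on D chromosomes outside dense regions, 31.8% were shared (95% Wilson interval 30.1 to 33.5). Over all sequences the share was 44.0%, and over the 26 chromosomes outside dense regions it was 35.3%. Membership was defined by this overlap, so the figures describe the choice of peaks and support nothing. Seen from the B list, 934 of 2941 B peaks on the same stretches, or 31.8% (30.1 to 33.5), overlapped a D53 peak, against 41.3% of B peaks over all sequences. The shared percentage was 37.7% on D01 (31.8 to 44.0), 35.0% on D06 (29.2 to 41.2) and 34.7% on D02 (29.0 to 41.0). It was 26.9% on D11 (21.8 to 32.7) and 27.5% on D03 (20.8 to 35.3). The intervals of these chromosomes overlap, and they cover the counting of peaks only.

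The score is the authors' whole-number value per peak, which no source used here defines. It was not rescaled between lists. Shared peaks on D chromosomes had a median D53 score of 10, with quartiles of 7 and 23 and a highest value of 398. Their B partners had a median score of 17, with quartiles of 10 and 35 and a highest value of 560. Where a D53 peak met several B peaks, the partner is the one of highest score. D53 peaks on D chromosomes without a partner had a median score of 5 and quartiles of 4 and 6. B peaks without a partner there had a median of 7 and quartiles of 6 and 11. Of the 901 shared peaks, 52 had a D53 score under 5, 262 had a score of 20 or more and 40 had a score of 100 or more.

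Whether a D53 peak on a D chromosome had a B partner went with its score in steps, and the steps were close to those on A chromosomes. At D53 scores of 3 to 4, 52 of 968 peaks on D were shared, or 5.37% (95% Wilson interval 4.12 to 6.98), against 6.36% on A (5.31 to 7.60). From 5 to 9 the share was 29.0% on D (26.5 to 31.6) and 27.6% on A (25.8 to 29.3). From 10 to 19 it was 62.8% on D (57.8 to 67.5) and 62.1% on A (59.3 to 64.8). From 20 to 49 it reached 91.7% on D (87.0 to 94.8) and 91.2% on A (88.7 to 93.2). From 50 upwards it was 94.4% on D (87.6 to 97.6) and 93.9% on A (89.9 to 96.4). In each of these 5 score bands the intervals of both subgenomes overlapped.

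Over all scores together the shared percentage was lower on D than on A, at 31.8% (30.1 to 33.5) against 36.8% (35.7 to 38.0), and lower on 12 of 13 D chromosomes than on the like-numbered A chromosome. Low scores made up a larger share of the D53 peaks on D. A score under 5 was found for 34.2% of D53 peaks on D and 27.7% of those on A, and a score of 10 or more for 23.4% on D and 32.4% on A. When the band percentages of D were weighted by the number of A peaks in each band, the shared percentage on D came to 37.3%, beside the 36.8% measured on A. Weighting the A percentages by the bands of D gave 31.4%, beside the 31.8% measured on D.

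Shared sites on D chromosomes were most frequent in the middle of the chromosome. When each span was cut into 10 equal bins, bins 5 and 6 held 119 and 131 of the 901 members, and bins 2 and 9 held 57 and 47. The outermost bins, 1 and 10, held 79 and 88, more than their inner neighbours. D53 peaks without a partner were spread more evenly, with between 167 and 236 of 1933 per bin. The shared percentage of all D53 peaks was accordingly 41.0% in bin 5 (95% Wilson interval 35.5 to 46.8) and 40.3% in bin 6 (35.1 to 45.7). It was 22.5% in bin 2 (17.8 to 28.1), 20.1% in bin 9 (15.5 to 25.7) and 27.2% in each of bins 1 and 10. The higher share in the middle than at the ends was not particular to D. On A chromosomes the shared percentage was 43.5% in bin 5, 24.3% in bin 1 and 23.7% in bin 10. The upturn in the outermost bins was not seen on A, where bins 2 and 9 stood higher, at 29.0% and 33.3%. Bin 8 also differed, at 44.8% on A and 28.9% on D. The central 50% of the span held 65.3% (63.4 to 67.2) of shared peaks on A.

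Median scores of the shared peaks were likewise higher in the middle. The median D53 score was 14 in bin 5, 13 in bin 6 and 16.5 in bin 4, with B medians of 23, 22 and 23.5. At both ends it was 6 for D53 and 9 for B. A D53 score of 50 or more was found for 18 of 131 peaks in bin 6 and 12 of 119 in bin 5. It was found for 9 of 57 in bin 2, 4 of 79 in bin 1 and 4 of 88 in bin 10. Bin 2 took in the members beside the dense region at D06 6800001 to 6900000. The ratio of both scores did not follow this gradient, as its median on the log2 scale stayed between -0.65 and -0.42 over the 10 bins. Peak width did not follow it either, with bin medians of 308 to 360 bp.

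The central 50% of the span held 549 of the 901 shared peaks, or 60.9% (57.7 to 64.1), against 48.2% (45.9 to 50.4) of the 1933 peaks without a partner. The shared peaks were the more central set on 12 of 13 chromosomes, D11 being the exception with 36.8% of its shared and 42.2% of its unshared peaks in the central 50%. Within the score bands from 5 to 49 the sets lay close together. At D53 scores of 5 to 9 the central share was 41.8% of shared peaks (36.8 to 47.1) and 44.0% of those without a partner (40.7 to 47.3). From 10 to 19 it was 76.5% of shared peaks (70.7 to 81.4) and 75.2% of the others (67.4 to 81.6). From 20 to 49 it was 81.9% of shared peaks (75.6 to 86.9) and 81.3% of the 16 without a partner (57.0 to 93.4). From 50 upwards it was lower, at 69.4% of shared peaks (59.0 to 78.2) and 60.0% of only 5 without a partner (23.1 to 88.2). Under a score of 5 shared peaks were less central, at 32.7% of 52 (21.5 to 46.2), than the 916 without a partner, at 47.3% (44.1 to 50.5). When the peaks without a partner were weighted to the score bands of the shared ones, their central share came to 61.2%, beside the 60.9% measured for shared peaks. The weighted value has no interval and is imprecise, since its bands from 20 upwards rest on only 16 and 5 peaks without a partner. How the score relates to the calling of the peaks is not known here, and what sets the higher scores in the middle of the D chromosomes was not tested.

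**Figure D2:**
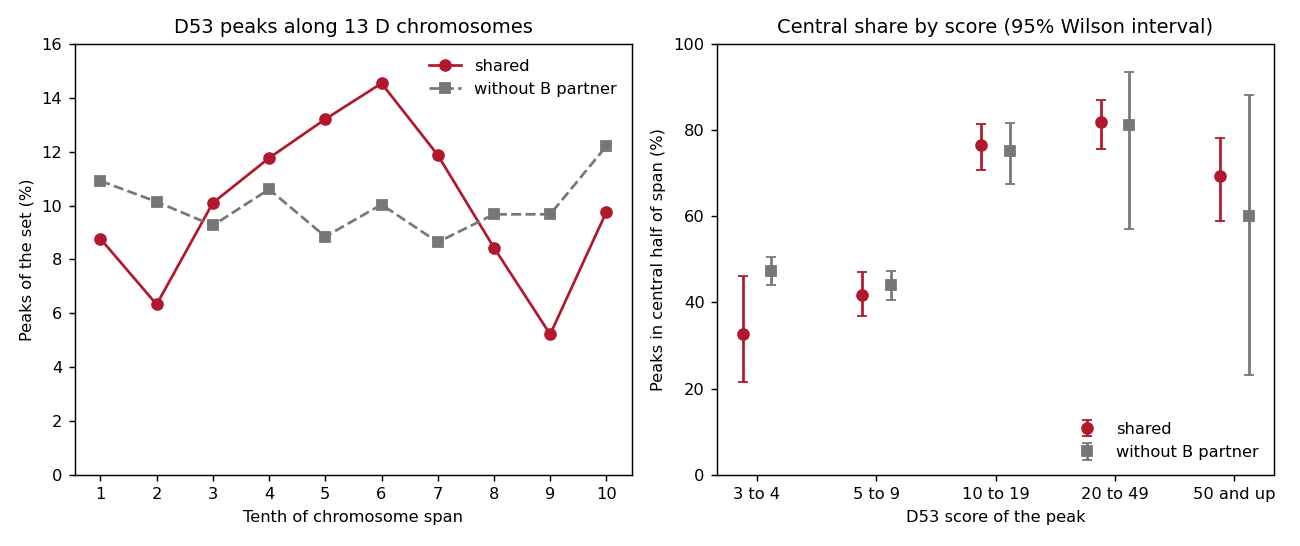
Left, the percentage of shared D53 peaks (red) and of D53 peaks without a B partner (grey) in each of 10 equal bins along the 13 D chromosomes; right, the percentage of each set in the central 50% of the span, by D53 score, with 95% Wilson intervals. The shared peaks pile up in bins 4 to 7 while the others stay level, yet at scores of 10 to 19 both sets have 76.5% and 75.2% of their peaks in the central 50%.

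Shared peaks had a median width of 337 bp for D53, with quartiles of 256 and 536 bp, and of 329 bp for the B partner, with quartiles of 238 and 498 bp. D53 peaks without a partner had a median of 247 bp and B peaks without one 237 bp. Shared peaks were the wider set in each of the 5 score bands, for example 335.5 against 274 bp at scores of 10 to 19. Width is not independent of the rule, since a wider peak more readily has a base in common with a B peak. Width and score were only loosely related among the members, with a Spearman rho of 0.22 for D53 and 0.20 for B over 901 peaks. The D53 peak was wider than its partner at 508 sites. Of the members, 50 were at least 1000 bp wide, or 5.55% (4.23 to 7.24), beside 5.21% (4.38 to 6.19) of shared peaks on A.

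The widest member lay at D01 27092382 to 27094515, 2134 bp wide, with a D53 score of 293. The next 4 were 1909 to 1994 bp wide and had low to middling D53 scores of 47 at D02 52424496 to 52426489, 25 at D03 16335088 to 16337039, 37 at D09 7743836 to 7745774 and 25 at D01 51751640 to 51753548. On D03 the B partner was almost as wide, at 1907 bp. The D01 51751640 peak met 3 separate B peaks, and the D02 and D09 peaks met 2 each.

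How the peaks of a pair lie to each other is bounded by the rule, since peaks that overlap cannot have distant midpoints, and is given as a description. The median number of bases in common was 238 bp, and the midpoints of both peaks were a median of 63.5 bp apart, with quartiles of 20.5 and 184 bp. At 389 sites, or 43.2% (40.0 to 46.4), the midpoints were at most 50 bp apart, and at 21 sites they were over 500 bp apart. At least 50% of both peaks was covered at 601 sites, or 66.7% (63.6 to 69.7). Most members, 855 of 901, met 1 B peak, while 44 met 2 and 2 met 3. In 826 pairs neither peak met a second one.

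The limit of 1 bp fell among low-scoring peaks. The member with the fewest bases in common, 3 bp, was at D12 7632626 to 7632914, with a score of 11 in both lists. The next had 4 bp in common at D07 27122224 to 27122789, with scores of 9 for D53 and 17 for B. In all, 14 members had at most 20 bp in common, with a median D53 score of 5.5, and 15 peaks without a partner had a B peak at most 20 bp away, with a median D53 score of 6. Just outside, 4 D53 peaks missed a B peak by 2 bp. They were D02 2687216 to 2687635, D02 18952526 to 18952973, D10 6394433 to 6394686 and D11 5359103 to 5359465, with D53 scores of 4, 9, 5 and 6 beside B peaks of 5, 10, 7 and 7. Of the 1933 peaks without a partner, 55 had a B peak within 100 bp, and the median distance was 56664 bp.

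D53 and B scores of the 901 pairs followed each other closely in rank, at a Spearman rho of 0.90. The value is a description, since all pairs come from the same libraries and a site had to be called in each list to count. By chromosome rho ran from 0.78 on D02 to 0.95 on D08. As a log2 ratio, D53 over B score had a median of -0.58 (SD 0.52), read here only as the level that single pairs are set against, since depth is unknown. By chromosome it lay between -0.71 on D06 and -0.46 on D09. Shared peaks on A had the same median, -0.58 (SD 0.48). The D53 score was above the B score at 57 sites, or 6.33% (4.91 to 8.11), against 6.86% of pairs over all sequences. It was equal at 50 sites.

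**Figure D3:**
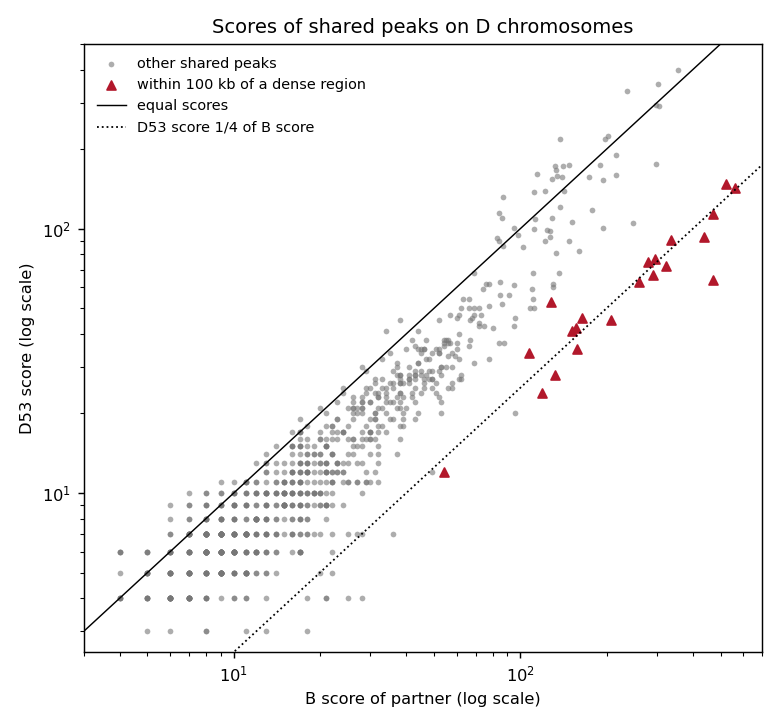
Each point is 1 of the 901 shared peaks, with the B score of its partner on the horizontal and its D53 score on the vertical axis, both on log scales; triangles mark the 21 peaks within 100 kb of a dense region, and lines mark equal scores and a D53 score of 1/4 of the B score. Most points run just under the line of equal scores and reach it at high scores, while the triangles follow the lower line.

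The sites that follow are ranked by the lower of both scores, which favours pairs with like scores. By that measure the highest was D07 51886462 to 51887466, near the far end of its chromosome, with 398 for D53 and 354 for B. It was followed by D01 54154741 to 54155820, with 353 for D53 and 303 for B. D01 27092382 to 27094515 had 293 for D53 and 297 for B, and D02 35621960 to 35623416 had 291 for D53 and 305 for B. At D08 44697823 to 44698538 the D53 score was 331 and the B score 236. These 5 sites were broad, between 716 and 2134 bp, and at 4 of them the midpoints of both peaks were 41 bp or less apart.

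The other five of the 10 highest had D53 scores of 174 to 225. D01 17206015 to 17206509 had 225 for D53 and 202 for B. D12 22601170 to 22601472, only 303 bp wide, had 218 for D53 and 198 for B. At D02 39862054 to 39862686 and D07 24799201 to 24799935 the D53 scores were 190 and 174, and the B scores 216 and 189. D03 14135530 to 14135966 had 176 for D53 and 298 for B. The log2 ratio there, -0.76, lay within the quartiles of all members, -0.87 and -0.31. The rest of the 10 sites lay above the upper quartile. D01, D02 and D07 thus carried 7 of these 10 sites. Ranked by the geometric mean of both scores instead, the 10 highest took in 3 members beside dense regions, where B was far above D53: D08 15508487 to 15509947 with 143 for D53 and 560 for B, D08 15504132 to 15505801 with 147 for D53 and 524 for B, and D06 6908684 to 6909555 with 114 for D53 and 471 for B.

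The highest D53 score on the remaining chromosomes was lower. It was 174 on D06, at 58199909 to 58200189, with 148 for B. D11 reached 167, at 5854047 to 5854386, with 133 for B, in the first bin of the chromosome. D13 reached 110, at 9097452 to 9097760, with 129 for B. D04 and D05 both reached 90, at 13320438 to 13320717 with 148 for B and at 19441152 to 19441453 with 84 for B. D10 reached 81, at 35825335 to 35825562, with 133 for B. D09 had no shared peak above 56, which was at 7741505 to 7743232 with 91 for B.

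**Figure D4:**
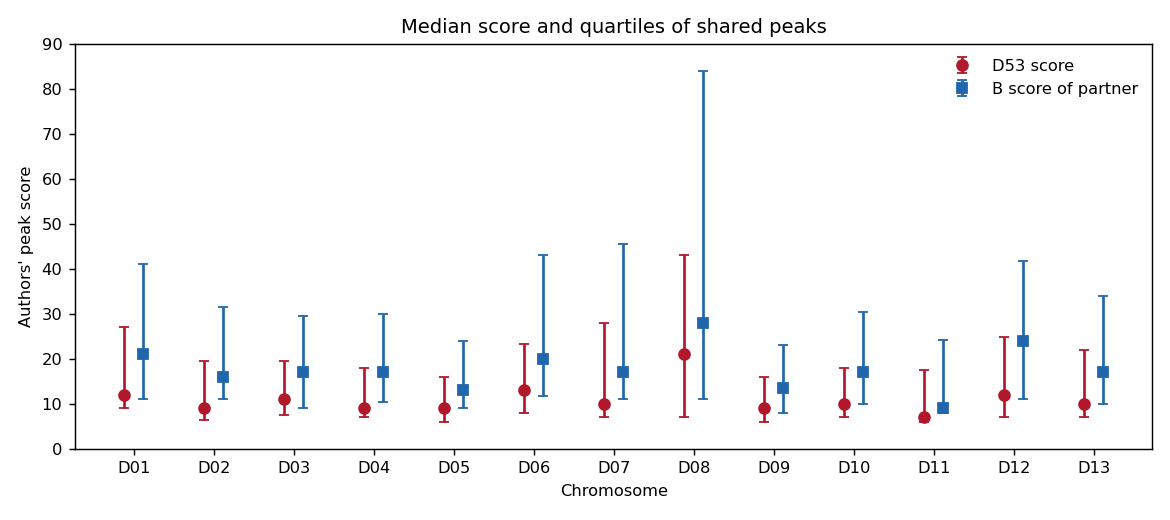
Points give the median D53 score (red) and the median score of the B partners (blue) of the shared peaks on each D chromosome, and bars run from the lower to the upper quartile. D08 stands highest, with medians of 21 and 28, and D11 lowest, with 7 and 9.

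Chromosome medians of the scores were alike apart from D08 and D11. On D08 the medians were 21 for D53 and 28 for B, on D11 7 for D53 and 9 for B, and on the other chromosomes between 9 and 13 for D53 and between 13 and 24 for B. D08 also had the most shared peaks with a D53 score of 50 or more, 17 of its 73, followed by D06 with 13 of 84. Both counts took in members beside dense regions, with D53 scores up to 147 on D08 and 114 on D06. D02, which has no dense region, came next with 9 of 83. Without the 9 members next to the dense region of D08, the D08 medians were 14 for D53 and 18 for B. D11, which had the lowest scores, was also the chromosome with the lowest share in the central 50%, 25 of 68.

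Many shared sites came in short runs. Runs were not counted for D53 peaks without a partner or for A chromosomes, so these values do not set the shared sites apart. Of 888 gaps between neighbouring members, 197, or 22.2% (19.6 to 25.0), were at most 10 kb and 109 at most 1 kb, although the median gap was 388680 bp. Chaining members at most 10 kb apart put 334 members into 137 runs and left 567 alone. There were 97 runs of 2, 29 of 3, 6 of 4, 4 of 5 and 1 of 9. Members in runs and lone members had like median scores, 11 and 10 for D53 and 18 and 16 for B. A D53 score of 50 or more was found for 41 of the 334 in runs, or 12.3% (9.18 to 16.2), and 44 of the 567 lone ones, or 7.76% (5.83 to 10.3). All 21 members beside dense regions were in runs, and 12 of them had such a score. Without them it was 29 of 313 in runs, or 9.27% (6.53 to 12.99). Of the 777 windows of 1 Mb, 347 held no member, and 17 gaps exceeded 5 Mb, the longest being 9.04 Mb on D08.

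The runs differed in how both lists scored them. At D02 35611025 to 35623416, 5 members within 12392 bp scored 95, 158, 173, 219 and 291 for D53 along the chromosome, against 98, 134, 141, 138 and 305 for B. Their median log2 ratio was 0.24, well above that of all pairs. At D10 27769194 to 27775130, 5 members scored 11, 12, 26, 27 and 10 for D53, against 17, 18, 39, 38 and 17 for B. Their median ratio of -0.58 was that of all pairs. At D04 28216560 to 28230400, 5 members scored 47, 15, 21, 8 and 6 for D53, against 69, 27, 38, 16 and 8 for B, with a median ratio of -0.85. The longest run, 9 members at D08 15502652 to 15517056, and the fourth run of 5, at D06 6900481 to 6909555, lay beside dense regions and had median ratios of -1.90 and -2.16.

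Members beside the dense regions had the score ratio found inside them. The regions had been drawn in windows of 100 kb with at least 10 peaks of each list, so a cluster can run past its window. Within 100 kb of an edge lay 21 members, and each had its midpoint at most 16868 bp from that edge. Their D53 scores had a median of 63 and ran from 12 to 147, and their B scores had a median of 259 and ran from 54 to 560. Their log2 ratio of D53 over B score had a median of -2.04 (SD 0.31). Inside the regions it was -2.07 over 118 shared peaks, and for the 880 members elsewhere it was -0.58 (SD 0.47).

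Of the 5 regions, 4 had neighbours, and the median ratio beside each lay between -2.20 and -1.90. These medians rest on 3 to 9 peaks and were not compared by a test. Beside D08 15400001 to 15500000 the 9 members had D53 scores of 34 to 147 and B scores of 107 to 560. Beside D06 6800001 to 6900000 the 5 members had D53 scores of 24 to 114 and B scores of 119 to 471, with ratios from -2.88 to -1.27 and a median of -2.16. The highest of them was D06 6905399 to 6906554, with 53 for D53 and 128 for B. The lowest was D06 6907825 to 6908470, with 64 for D53, whose B partner of 471 was also that of D06 6908684 to 6909555. The B partner of D06 6900481 to 6900992 also met a D53 peak inside the region. Beside D12 37300001 to 37400000 the 4 members had D53 scores of 46 to 93 and B scores of 164 to 438, with a median ratio of -1.92. Beside D05 46400001 to 46600000 the 3 members had D53 scores of 12 to 45 and B scores of 54 to 207, with a median ratio of -2.20. The region at D06 18800001 to 18900000 had no D53 peak within 100 kb. The source of this ratio was not tested.

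**Figure D5:**
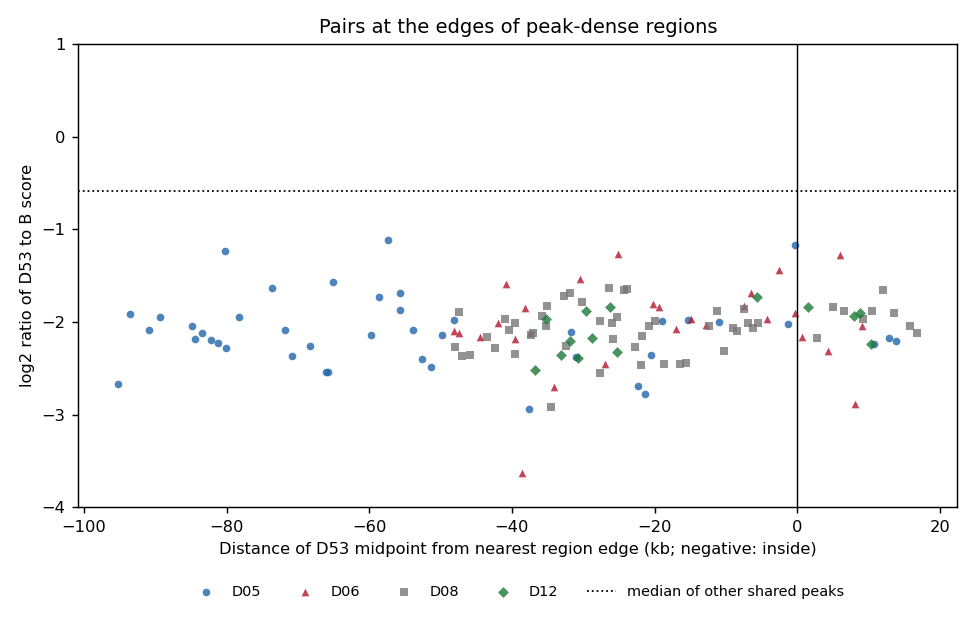
Each point is a shared peak inside a dense region of the D chromosomes (negative distance) or within 100 kb outside it (positive distance), placed by the distance of its midpoint from the nearest edge in kb and by its log2 ratio of D53 to B score; the dotted line is the median of the other shared peaks, -0.58. The points keep to the level near -2 across the edge and end within 17 kb of it.

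A log2 ratio below -1.5 was found for 46 of the 901 members, or 5.11% (3.85 to 6.74). On A chromosomes outside dense regions it was found for 77 of 2321 shared peaks, or 3.32% (2.66 to 4.13). Over all sequences it was 13.8% of pairs, which takes in the dense regions and sequences outside the 26 chromosomes. Of the 46 members, 20 were among the 21 beside dense regions. The other 26, of 880, were mostly weak, and 23 had a D53 score under 10. Among pairs in which neither peak met a second one, the lowest ratios were -2.81 at D02 40489180 to 40489467, -2.64 at D03 9945726 to 9945930 and -2.58 at D09 28968619 to 28968850. D53 scored 4, 4 and 3 at these sites, next to its lowest value of 3 in the list, and B scored 28, 25 and 18. The next were D12 22944672 to 22944878, with 7 for D53 and 36 for B, and D06 6904202 to 6904503 beside a dense region, with 24 for D53 and 119 for B. Away from dense regions the strongest site with so low a ratio was D12 23028749 to 23029001, with 20 for D53 and 96 for B, named after its values were seen.

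At the other end, 2 strong sites favoured D53 most. D02 35621007 to 35621663 had 219 for D53 and 138 for B, a log2 ratio of 0.67, and D08 39187519 to 39188044 had 132 for D53 and 87 for B, a ratio of 0.60. The D02 site belongs to the run of 5 described above. A ratio of 0.58 followed at 4 weak sites, where D53 scored 9 or 6 and B scored 6 or 4. At scores this low a step of 1 in either list alters the ratio a good deal, so no weight is put on them.

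Among the strongest pairs, ratios beside dense regions and elsewhere did not overlap. Of 52 members whose geometric mean of both scores was at least 100, 11 lay beside dense regions, and their log2 ratios ran from -2.88 to -1.83. The lowest of these was at D06 6907825 to 6908470, whose B partner also met a second member. The 41 elsewhere had ratios from -1.24 to 0.67, with a median of -0.07. In 33 of the 41 the ratio was above -0.5, and in 17 the D53 score was above the B score. By D53 score, the median ratio of all members was -0.81 at 3 to 4, -0.58 at 5 to 9 and at 10 to 19, -0.60 at 20 to 49 and -0.33 from 50 upwards. The bands were cut on the D53 score, so the lowest band holds low and the highest band high D53 scores by construction. The highest band also took in 12 members beside dense regions, and its ratios had an SD of 0.77, against 0.45 at 20 to 49.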

How the data were processed

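Each of the 2 IPs had a peak list, made by the authors against its own input, 1 library at a time per the peak names in the lists. The deposited score, 1 whole number per peak, is the authors' value. What it measures, the genome build, and how reads were aligned and peaks called are not given in the sources used here. Starts were deposited counting from 0 and are printed counting from 1. Overlaps were found in Python 3.11.15 with NumPy 2.4.6, pandas 2.3.3 and SciPy 1.17.1, tested on simulated data, and checked against bedtools 2.31.1, which gave the same 7918 shared D53 peaks over all sequences. Figures used matplotlib 3.10.9. The members, the dense regions, score bands and bins were chosen with earlier results of these data known. Peaks were named by rank in lower score, highest D53 score per chromosome, extremes of ratio, width, run length and nearness to the limit of overlap. Wilson intervals (95%) treat peaks as independent, which neighbouring peaks are not. The gene table at hand belongs to another assembly, with genes up to 8.34 Mb past the last peak of a chromosome, so no gene or sequence is given. Alternatives covered the overlap rule, dense regions, a D53 score minimum, partners and span.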

Additional observations from a re-analysis of the deposited data

How the results depend on the processing

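Under the 7 alternatives, 19 of 44 values stayed within the interval of the reported value and 25 moved beyond it. The interval was exact binomial for medians, within 1.5 times for counts and equality to 2 decimals for rho. Counts, percentages, widths and scores cannot change sign, so direction could be checked only for the log2 ratio and rho. The median log2 ratio stayed negative and rho positive throughout. With at least 50% of the shorter peak covered, 28.3% of D53 peaks on D were shared, the central share was 64.1%, the median scores were 12 for D53 and 18.5 for B, and rho was 0.92. With at least 50% of both peaks covered these were 21.3%, 68.5%, 13, 21 and 0.94, and the median width was 324 bp. With dense regions kept in they were 34.5%, 56.5%, 12, 20 and 0.91, and the median log2 ratio was -0.65. A D53 score of at least 10 left 500 members, by construction, with 75.5% shared, 77.2% central, a median width of 360 bp, medians of 21 and 31, a ratio of -0.57 and rho of 0.92. For the other shifts the cause was not tested, except that stricter overlap can only remove members. Leaving out the 21 members beside dense regions, an alternative chosen after seeing the data, moved no value beyond its interval. No paired analysis was possible because there was 1 library per IP and the labels number them differently. With 1 library per group no replicate could be left out. Unknown depth limits every statement on a peak missing from one list.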
